A study of Mus musculus with 9 samples.

Results

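Collagens and laminins are the main structural proteins of the matrix between cells. Of the 18193 genes with a single symbol on the array, 52 encode a collagen or laminin chain by their symbol (Col, a number, a and a number, or Lama, Lamb or Lamc and a digit), and all 52 are accounted for here. They comprise 11 fibrillar collagen chains, 16 basement membrane chains (collagen IV and the laminins) and 25 other collagen chains. Each gene is given by its probe set of highest mean level. Of the 52, 32 read log2 5 or more on at least 2 arrays and were tested, and 20 did not. A low reading of a probe set does not show that a transcript was absent.

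The RNA came from freshly dissected olfactory bulbs of CD1 mice, an outbred stock, with no genotype or drug as a variable, taken daily between embryonic day 11 (E11) and embryonic day 18 (E18), and once at birth (P0). Every age is 1 array of RNA that was amplified over 2 rounds, from 1 animal, so that no age has a replicate, and a trend is judged by how far the 9 points lie from the fitted line. The series was made to find transcription factors of progenitor cells in the bulb, and age is the comparison its design allows. Levels are log2 values per probe set. They can be followed across ages for a gene, but a level of a gene is not set against that of another gene, because probe sets differ in brightness. In whole tissue, fewer cells of a type and less RNA per cell cannot be told apart.

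The median level over all probe sets lay between 4.08 and 4.23 on the 9 arrays. Xist and the Y-linked genes split the arrays into 4 female animals (E11, E12, E15 and P0) and 5 male ones. Genes of bulb neurons were present: Tbr1 and Eomes, transcription factors of projection neurons, read at least 10.29 and 11.34 at every age, and Gad1, the enzyme that makes GABA, at least 9.53. Tbx21, a factor of mitral and tufted cells, read 2.40 at E11 and 9.28 at P0. Genes of non-neural cells were on the same arrays, and their values stand beside the chains below.

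A collagen molecule is a triple helix of chains from one or several genes. Fibrillar collagens (I, II, III, V and XI among them) are cut after secretion, pack into banded fibres and carry load in connective tissue, in the brain chiefly in the meninges and around large vessels. Collagen IV forms a flexible sheet instead and, with the laminins, builds the basement membrane, the thin layer under the pia, around vessels and around peripheral glia. A laminin joins an alpha, a beta and a gamma chain; the alpha chain carries most of the sites that bind receptors, so that laminins are told apart mainly by it. Radial glia, the progenitors of the brain, attach their end feet to the laminins of the pial basement membrane. The remaining collagens include the beaded filaments of collagen VI, the FACIT collagens that sit on the surface of fibrils, and chains that span the cell membrane, several of which are made by neurons.

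The bases before the start of 4 genes are shown because these genes, of collagens I, III and VI, rose over the same days. They are the 250 bases before the RefSeq start in GRCm38.p6, read 5′ to 3′ on the strand of the gene, with 4 short motifs on either strand in capitals: TATAAA (called the TATA motif here), CCAAT (the CCAAT motif), GGGCGG (the GC motif) and CCCTCC (the pyrimidine motif). Col1a2 lies at chr6:4505368-4505617 (plus strand), Col3a1 at chr1:45311288-45311537 (plus strand), Col6a1 at chr10:76726045-76726294 (minus strand) and Col6a3 at chr1:90843972-90844221 (minus strand).
Col1a2: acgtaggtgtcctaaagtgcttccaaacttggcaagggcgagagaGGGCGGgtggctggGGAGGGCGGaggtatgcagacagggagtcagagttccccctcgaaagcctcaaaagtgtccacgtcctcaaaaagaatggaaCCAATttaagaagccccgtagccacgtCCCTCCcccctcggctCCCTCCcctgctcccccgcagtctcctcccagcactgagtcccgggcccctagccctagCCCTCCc
Col3a1: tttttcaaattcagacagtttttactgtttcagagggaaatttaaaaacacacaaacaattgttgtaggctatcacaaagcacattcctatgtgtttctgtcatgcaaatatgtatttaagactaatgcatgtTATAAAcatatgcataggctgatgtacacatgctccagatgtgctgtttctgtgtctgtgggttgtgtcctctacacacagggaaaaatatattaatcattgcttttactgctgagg
Col6a1: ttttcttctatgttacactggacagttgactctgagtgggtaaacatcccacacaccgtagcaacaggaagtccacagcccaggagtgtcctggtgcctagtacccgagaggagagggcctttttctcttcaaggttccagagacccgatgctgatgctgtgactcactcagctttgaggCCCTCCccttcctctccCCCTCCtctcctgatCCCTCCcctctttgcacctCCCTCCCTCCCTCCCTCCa
Col6a3: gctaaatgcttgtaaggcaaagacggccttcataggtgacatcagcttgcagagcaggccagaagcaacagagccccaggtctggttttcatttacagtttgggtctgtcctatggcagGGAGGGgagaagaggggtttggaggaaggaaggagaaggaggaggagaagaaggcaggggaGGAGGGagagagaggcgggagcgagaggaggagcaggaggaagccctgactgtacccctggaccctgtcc

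The 4 genes rose, and no motif searched was in all 4 sequences. Col1a2 held 1 CCAAT motif, whose first base lies 109 bases before the start, 2 GC motifs and 4 pyrimidine motifs, 1 of which overlaps a GC motif. Col3a1 held the TATA motif with its first base 117 bases before the start and none of the other 3. Col6a1 held 7 pyrimidine motifs, 4 of them overlapping within the 19 bases before the start, and Col6a3 held 2 on the opposite strand. The pyrimidine motif was added to the search after the sequences were seen. Of all 32851 windows of the same length, 12.4% held the TATA motif, 33.8% the CCAAT motif, 32.7% the GC motif and 35.2% the pyrimidine motif. Of the 52 chains, 38 matched the table, and 5 of them held the TATA motif, 14 the CCAAT motif, 22 the GC motif and 22 the pyrimidine motif in at least 1 window. None of the 10 basement membrane chains matched held the TATA motif, and 2 of 8 fibrillar chains did, beside 12.4% of all windows. These small counts were not tested, and they are per chain while the shares are per window. A match is a run of letters and not a bound site.

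Over the course, 19 of the 32 chains tested rose, 3 fell and 10 did not pass (limma, slope against age in days, Benjamini-Hochberg over all 10864 genes tested, threshold 0.05). Among all genes tested, 25.2% rose and 21.9% fell, 47.2% in all. The median slope of the 32 was 0.26 log2 units per day and that of all genes 0.0020. These counts follow the filter in part, since 10 of the 32 read under 5 on at least 1 array. With all 52 chains fitted without a filter, 20 rose and 3 fell, beside 14.7% and 12.3% of the 18193 genes fitted in that way. The 3 classes differed in their counts, which were not tested against each other: 5 of 8 fibrillar chains rose and 1 fell, 3 of 9 basement membrane chains rose and 1 fell, and 11 of 15 other chains rose and 1 fell. The median slopes were 0.24, 0.098 and 0.29 log2 units per day, in that order. Without the E11 and E12 arrays 4 of 8 fibrillar, 5 of 9 basement membrane and 6 of 15 other chains rose. The order of the classes by share rising thus depended on those arrays.

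**Figure D1:**
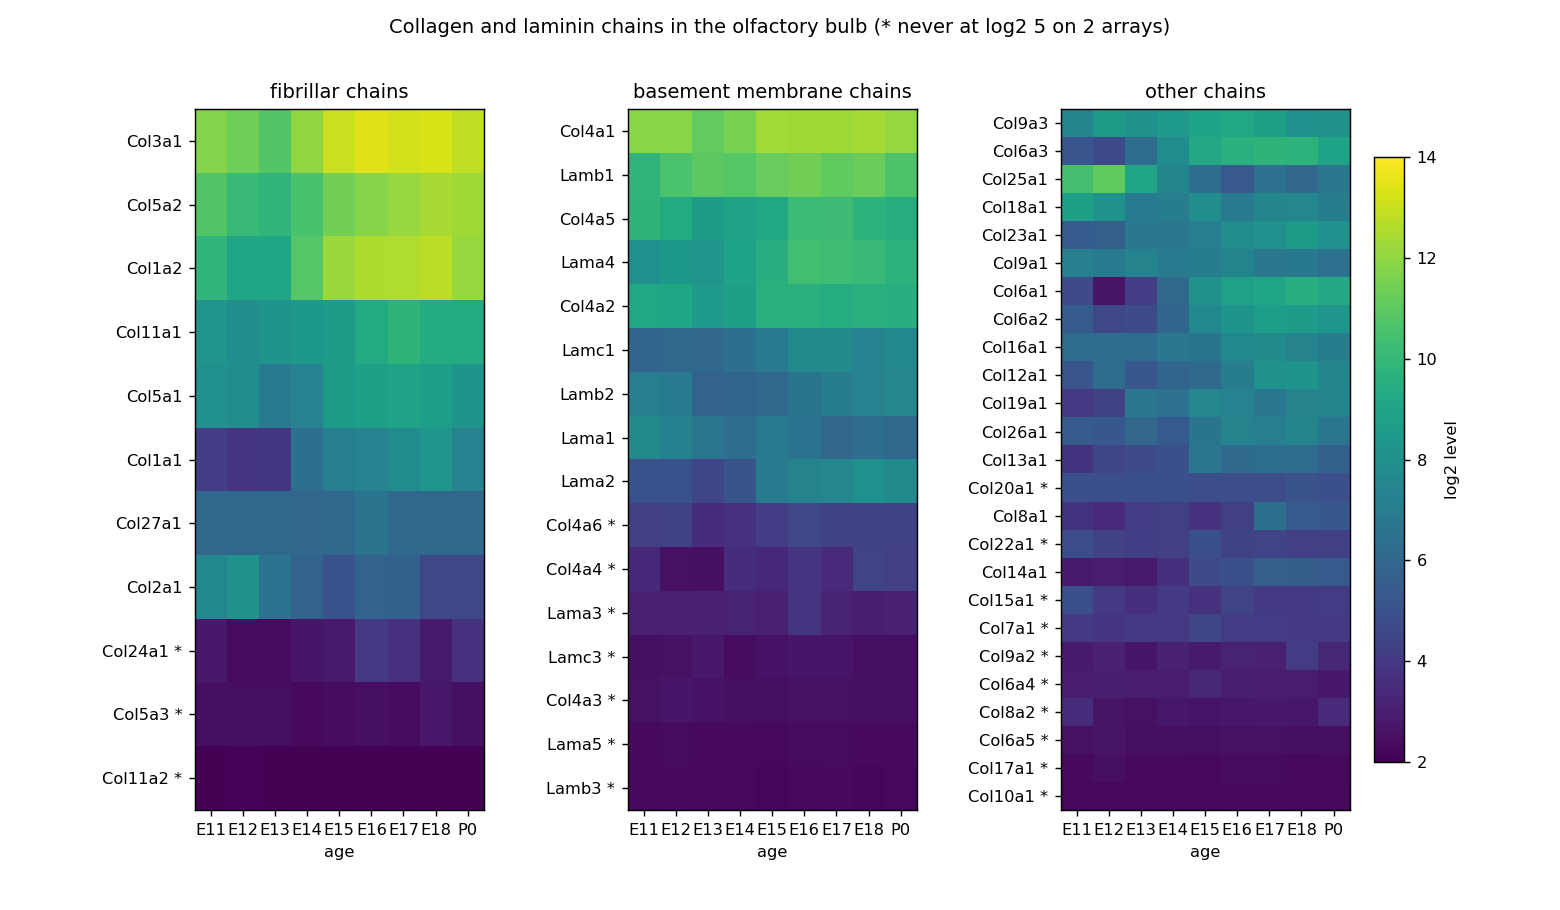
Log2 level of each of the 52 chains (rows, ordered by mean level within a class) at each of 9 ages (columns, 1 array each); an asterisk marks the 20 chains that never read log2 5 on 2 arrays. Col1a2, Col6a1 and Lama2 brighten from E14 or E15 on, while Col25a1 and Col2a1 are brightest at E12.

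**Figure D2:**
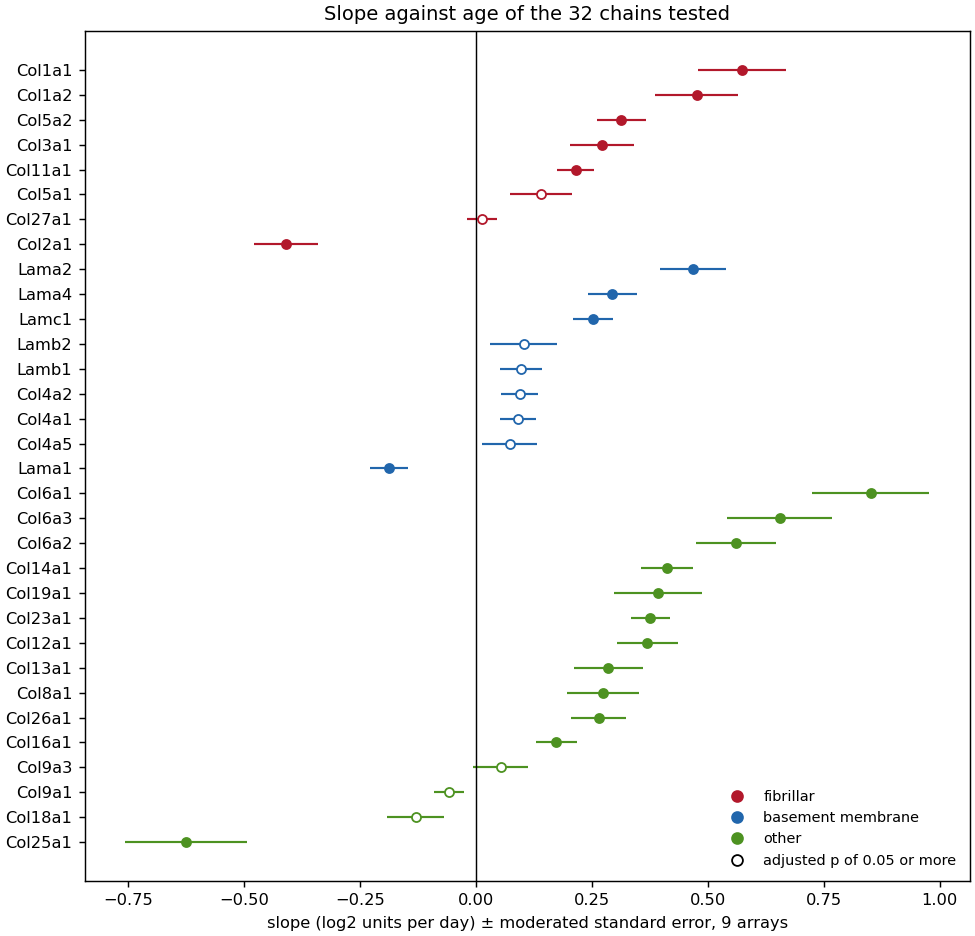
Slope against age in log2 units per day for the 32 chains tested, with the moderated standard error over 9 arrays as bars; filled points passed an adjusted p of 0.05. The fibrillar and other chains lie mostly to the right of 0, and 5 of 9 basement membrane chains are open points between 0.074 and 0.10.

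Of the fibrillar chains of connective tissue, Col1a1, Col1a2, Col3a1 and Col5a2 rose, and each was higher at E15 than at E13. Col1a1 and Col1a2, the 2 chains of collagen I of dermis, bone and meninges, had like courses. Col1a1 read 4.18 at E11, 3.82 at E12, 3.93 at E13, 6.45 at E14, 7.12 at E15, 7.31 at E16, 7.80 at E17, 8.25 at E18 and 7.31 at P0. The first 3 ages were all under 5 and the last 6 all above it. Its slope was 0.57 ± 0.095 log2 units per day (± standard error over 9 arrays, limma adjusted p = 0.000875), and the mean of E17, E18 and P0 was at least 6.89-fold above that of E11, E12 and E13, with values under 5 set to 5. Col1a2 read 9.91 at E11, 9.08 at E12, 9.12 at E13, 10.83 at E14, 12.19 at E15, 12.50 at E16, 12.57 at E17, 12.77 at E18 and 12.15 at P0. It was lowest at E12 and E13 and highest at E18, with a slope of 0.48 ± 0.090 (adjusted p = 0.00178) and late ages 8.74-fold above early ones. The slopes of the 2 chains differed by 0.097 ± 0.044 per day (exact permutation test over the 9 ages, two-sided, adjusted p = 0.116 over 11 pairs of chains). The difference passed without the E14 array (adjusted p = 0.0101) and had the opposite sign with values under 5 set to 5 (-0.053, adjusted p = 0.605).

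Col3a1, the chain of the thin fibres of vessels and loose tissue, rose less steeply than Col1a1. Col3a1 read 11.79 at E11, 11.34 at E12, 10.81 at E13, 12.01 at E14, 13.04 at E15, 13.46 at E16, 13.16 at E17, 13.34 at E18 and 12.84 at P0. The low point was E13, under E11 and E12, and the peak was E16. The slope was 0.27 ± 0.069 (adjusted p = 0.00885), a call that did not hold on ranks (exact Spearman test, adjusted p = 0.0803) or when the E11 and E12 arrays were left out (0.0510). By the probe sets used Col1a1 rose faster than Col3a1, by 0.30 ± 0.063 log2 units per day (exact permutation test, adjusted p = 0.00653). With values under 5 set to 5 the difference was 0.15 (exact permutation test, adjusted p = 0.0336). With the mean of the probe sets of each gene it was 0.23 (exact permutation test, adjusted p = 0.0378). A dimmer Col1a1 probe set had a slope of 0.47 ± 0.077 and a dimmer Col3a1 one 0.30 ± 0.081. A difference in slope between 2 genes thus also holds the choice of probe sets. Col5a2, a chain of the collagen V that starts and limits the width of collagen I fibrils, is the neighbour of Col3a1 on the chromosome. Col5a2 read 10.74 at E11, 10.13 at E12, 9.89 at E13, 10.54 at E14, 11.46 at E15, 11.84 at E16, 12.14 at E17, 12.42 at E18 and 12.29 at P0. It rose with a slope of 0.31 ± 0.052 (adjusted p = 0.000866), and its slope differed from that of Col3a1 by -0.042 ± 0.046 (Col3a1 minus Col5a2, exact permutation test, adjusted p = 0.532).

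Col5a1, the partner of Col5a2 in collagen V, did not pass by its main probe set (slope 0.14 ± 0.067, adjusted p = 0.111). It read 8.09 at E11, 6.91 at E13, 8.93 at E17 and 8.23 at P0, so that the E11 level lay close to that at birth. Another Col5a1 probe set rose (slope 0.17 ± 0.038), and the mean of both passed (adjusted p = 0.0270). Col11a1, a chain of collagen XI found with collagen II in cartilage and also with collagen V elsewhere, rose late. Col11a1 read 8.27 at E11, 7.88 at E12, 8.22 at E13, 8.40 at E14, 8.58 at E15, 9.33 at E16, 9.81 at E17, 9.40 at E18 and 9.33 at P0. The first 4 ages stayed between 7.88 and 8.40, and all ages from E16 on read 9.33 or more (slope 0.22 ± 0.040, adjusted p = 0.00171). A dimmer Col11a1 probe set had a slope of 0.086 ± 0.037 and did not pass (adjusted p = 0.0825 among all probe sets).

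Col2a1, the main collagen of cartilage and also a gene of the early neural tube, was the 1 fibrillar chain that fell. Col2a1 read 7.62 at E11, 8.14 at E12, 6.59 at E13, 5.80 at E14, 5.03 at E15, 5.81 at E16, 5.72 at E17, 4.60 at E18 and 4.58 at P0. It was highest at E11 and E12 and under 5 at E18 and P0, with a slope of -0.41 ± 0.069 (adjusted p = 0.000985) and early ages at least 4.62-fold above late ones. The slopes of Col1a1 and Col2a1 differed by 0.98 ± 0.16 log2 units per day (exact permutation test, adjusted p = 0.00218). Of 12 cartilage and bone markers on the array, 11 never reached log2 5 on 2 arrays, Matn1, Chad and Snorc among them. Matn1 read at most 2.46 and the aggrecan gene Acan at most 5.24, at P0. Col2a1 has a single probe set here, of the kind that reads several transcripts of a gene (_a_ in its name), so that no other probe set checks its fall.

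Col27a1 read between 5.96 and 6.04 on 8 arrays and 6.62 at E16, without a call (adjusted p = 0.774). The fibrillar chains Col5a3, Col11a2 and Col24a1 never read 5 on 2 arrays, and their highest values were 2.79, 2.10 and 3.98.

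**Figure D3:**
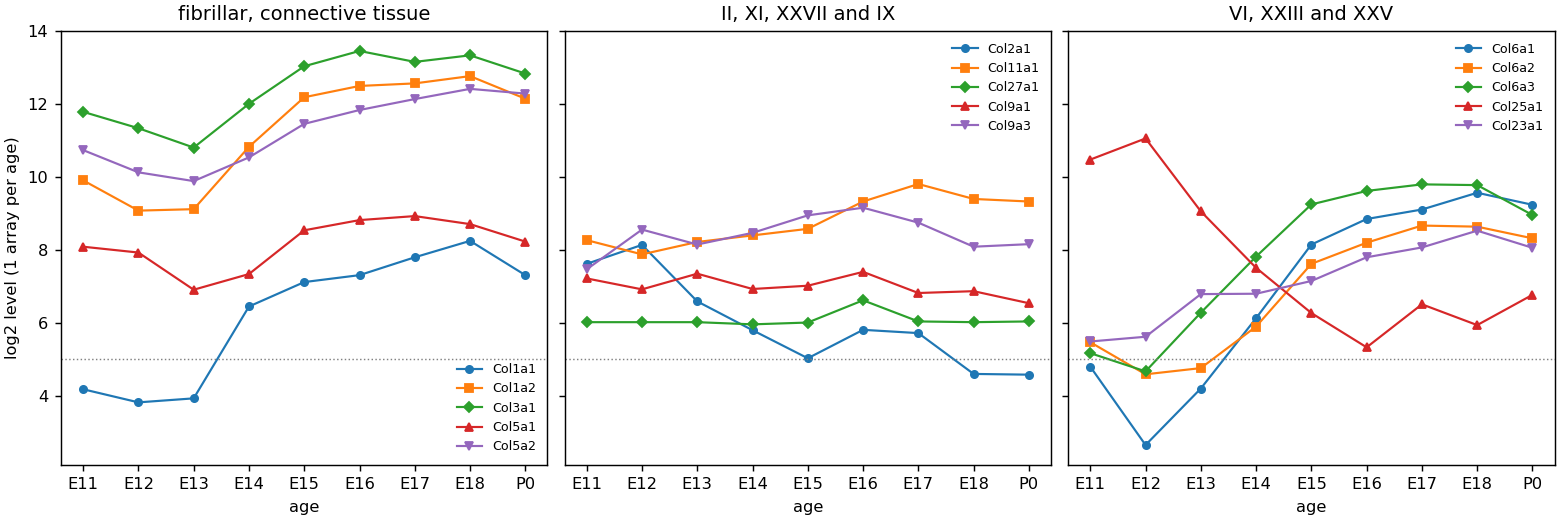
Log2 level at each age (1 array per age) of fibrillar chains of connective tissue (left), chains of collagens II, XI, XXVII and IX (middle) and of collagens VI, XXIII and XXV (right); the dotted line is log2 5. The connective tissue chains dip at E12 or E13, Col1a1 under log2 5, and step up by E15. Col2a1 falls under 5, and the collagen VI chains are higher while Col25a1 is lower from E14 on.

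The 3 chains of collagen VI, the beaded filaments of connective tissue that bind cells to larger fibres, had the steepest rises of the 32 chains tested save for Col1a1, which lay just above Col6a2. Col6a1 read 4.80 at E11, 2.65 at E12, 4.20 at E13, 6.13 at E14, 8.15 at E15, 8.85 at E16, 9.11 at E17, 9.57 at E18 and 9.24 at P0. All ages up to E13 were under 5 and all from E15 on above 8, a slope of 0.85 ± 0.13 (adjusted p = 0.000473) and at least 19.8-fold between early and late ages. Col6a2 read 5.47 at E11, 4.59 at E12, 4.76 at E13, 5.90 at E14, 7.62 at E15, 8.20 at E16, 8.67 at E17, 8.64 at E18 and 8.32 at P0. Col6a3 read 5.17 at E11, 4.67 at E12, 6.28 at E13, 7.82 at E14, 9.25 at E15, 9.62 at E16, 9.80 at E17, 9.78 at E18 and 8.96 at P0. Col6a2 (slope 0.56 ± 0.087, adjusted p = 0.000602) was lowest at E12, as were both other chains, and Col6a3 (slope 0.66 ± 0.11, adjusted p = 0.00114) was above its E11 level at E13. Col6a1 and Col6a2 are neighbours on chromosome 10, and their slopes differed by 0.29 ± 0.071 per day (exact permutation test, adjusted p = 0.00653). Of the 9 values, 3 of Col6a1 and 2 of Col6a2 were under 5, and with values under 5 set to 5 the difference was 0.16 (adjusted p = 0.000849). A dimmer Col6a2 probe set had a slope of 0.41 ± 0.073, so that the difference also depends on the probe set. Col6a1 and Col6a3 differed by 0.20 ± 0.087 (adjusted p = 0.116), which passed without the E11 array (0.34, exact permutation test, adjusted p = 0.000546) and was 0.055 with values under 5 set to 5 (adjusted p = 0.745). Col6a4 and Col6a5 read at most 3.27 and 2.62.

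Meningeal markers were on the same arrays. Of the 13 tested 10 rose and 1 fell, where 25.2% of all genes rose and 21.9% fell. The median of the 13 was 6.48 at E11, 4.57 at E12, 4.95 at E13, 7.91 at E15 and 8.64 at P0. That median, like Col1a1, Col1a2, Col3a1, Col5a2, Col6a1 and Col6a2, was lower at E12 and E13 than at E11 and higher at E15 than at E13; Col6a3 was lower than at E11 at E12 but not at E13. Of these, Col1a1 and Col6a1 read under 5 at E11, E12 and E13, and Col6a2 and the meningeal median at E12 and E13. With values under 5 set to 5, Col1a1 and Col6a1 had no dip. The part of meningeal cells in the rise of these chains was not tested. Crabp2, a retinoid-binding protein also of early mesenchyme, fell (slope -0.38 ± 0.14, limma adjusted p = 0.0496). It read 11.64 at E11, 6.81 at E15, its lowest age, and 8.68 at P0. Prrx1, a factor of mesenchyme, read 9.50 at E11 and 7.52 at P0 without a call (limma adjusted p = 0.0576).

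Levels at E11 were above those at E13 for all 8 fibrillar chains tested, beside 50.0% of all genes. For Col27a1 and Col11a1 the difference was only 0.0035 and 0.046 log2 units, and both Col1a1 readings were under 5. The count was 6 of 9 for the basement membrane chains and 6 of 15 for the other chains. At E15, 27 of the 32 chains were above their E13 level, beside 50.6% of all genes, with a median difference of 0.92 log2 units over the 32 and 0.0041 over all genes. The median was 1.60 for fibrillar, 1.02 for basement membrane and 0.81 for other chains. For 15 of the 32 the largest increase from an age to the next lay between E13 and E14 or between E14 and E15, beside 23.9% of all genes. At P0, 26 of 32 chains were below their E18 level, beside 44.5% of all genes. These counts compare single animals, were chosen after the values were seen and have no test. The comparisons of E11 with E13, E13 with E15, E14 with E15 and E18 with P0 each set a female beside a male, so that age and sex cannot be told apart in them.

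The alpha chains of laminin went in opposite directions. Lama1, the alpha chain of the early embryo and of the pial basement membrane, fell. Lama1 read 7.75 at E11, 7.27 at E12, 6.71 at E13, 6.31 at E14, 6.92 at E15, 6.59 at E16, 5.96 at E17, 6.28 at E18 and 6.0 at P0. It was highest at E11 and lowest at E17, with a slope of -0.19 ± 0.041 (adjusted p = 0.00393). It did not pass when the E11 and E12 arrays were left out (adjusted p = 0.147). Lama2, the alpha chain of muscle and of peripheral nerve and vessels, whose loss causes a muscular dystrophy with brain defects, rose. Lama2 read 5.02 at E11, 5.0 at E12, 4.52 at E13, 5.11 at E14, 7.0 at E15, 7.39 at E16, 7.54 at E17, 8.04 at E18 and 7.70 at P0. The 4 ages up to E14 read between 4.52 and 5.11 and the 5 from E15 on read 7.0 or more. This split was chosen after the values were seen. Its slope was 0.47 ± 0.071 (adjusted p = 0.000549), at least 6.72-fold between early and late ages. The difference between both slopes was -0.66 ± 0.059 log2 units per day (Lama1 minus Lama2, exact permutation test over 9 ages, adjusted p = 0.000121). Lama1 and Lama2 each have 1 probe set here, so that no other probe set checks their courses.

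Lama4, the alpha chain of vessel walls and of peripheral nerve sheaths, rose too. Lama4 read 8.02 at E11, 8.40 at E12, 8.25 at E13, 8.95 at E14, 9.58 at E15, 10.39 at E16, 10.28 at E17, 10.15 at E18 and 9.75 at P0. Each age from E14 to E16 was above the one before, and P0 was below E16 (slope 0.29 ± 0.053, adjusted p = 0.00146). Lama5 read between 2.28 and 2.35 on all arrays by the brightest of its 3 probe sets, and Lama3, the alpha chain of skin, at most 3.82. These readings do not show that the transcripts were absent. For Lama4 the dimmer probe set had a mean of 3.49 and the one used 9.31. The pairs of Lama5 with Lama1 and Lama4 were planned and could not be tested, since Lama5 did not reach the filter.

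By the quadratic term of age Lamb1 had a peak and Lamb2 a dip, and Lamc1 rose. The E11, E12 and P0 arrays, at the ends of the course, are female, and sex was not a term in the quadratic fits. Lamb1, the beta chain of most embryonic laminins, was lowest at E11, E12 and P0. Lamb1 read 9.87 at E11, 10.59 at E12, 10.96 at E13, 10.84 at E14, 11.23 at E15, 11.38 at E16, 11.09 at E17, 11.26 at E18 and 10.63 at P0. It had no linear call (slope 0.098 ± 0.045, adjusted p = 0.102; 0.00942 without the P0 array), and the quadratic term of age gave a peak of 0.94 log2 units near day 15.9 (limma adjusted p = 0.0135). Lamb2, the beta chain of mature basement membranes and synapses, was lowest in between. Lamb2 read 7.12 at E11, 7.0 at E12, 5.75 at E13, 5.88 at E14, 6.06 at E15, 6.67 at E16, 7.08 at E17, 7.33 at E18 and 7.56 at P0. E13 to E15 lay below all other ages, a dip of -1.32 log2 units near day 14.4 (adjusted p = 0.0375) with no linear call (adjusted p = 0.260). From E14 on each age was above the one before, and from E13 to P0 alone Lamb2 rose with a slope of 0.33 ± 0.037 (adjusted p = 0.000593). The linear slopes of the 2 beta chains differed by -0.0057 ± 0.13 (Lamb1 minus Lamb2, exact permutation test, adjusted p = 0.964). Lamc1, the gamma chain of nearly all laminins, rose. Lamc1 read 5.93 at E11, 6.06 at E12, 5.95 at E13, 6.40 at E14, 6.97 at E15, 7.70 at E16, 7.71 at E17, 7.30 at E18 and 7.59 at P0. The first 3 ages read between 5.93 and 6.06, and E16 to P0 7.30 or more (slope 0.25 ± 0.043, adjusted p = 0.000953). Lamc3 and Lamb3 read at most 2.83 and 2.30.

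**Figure D4:**
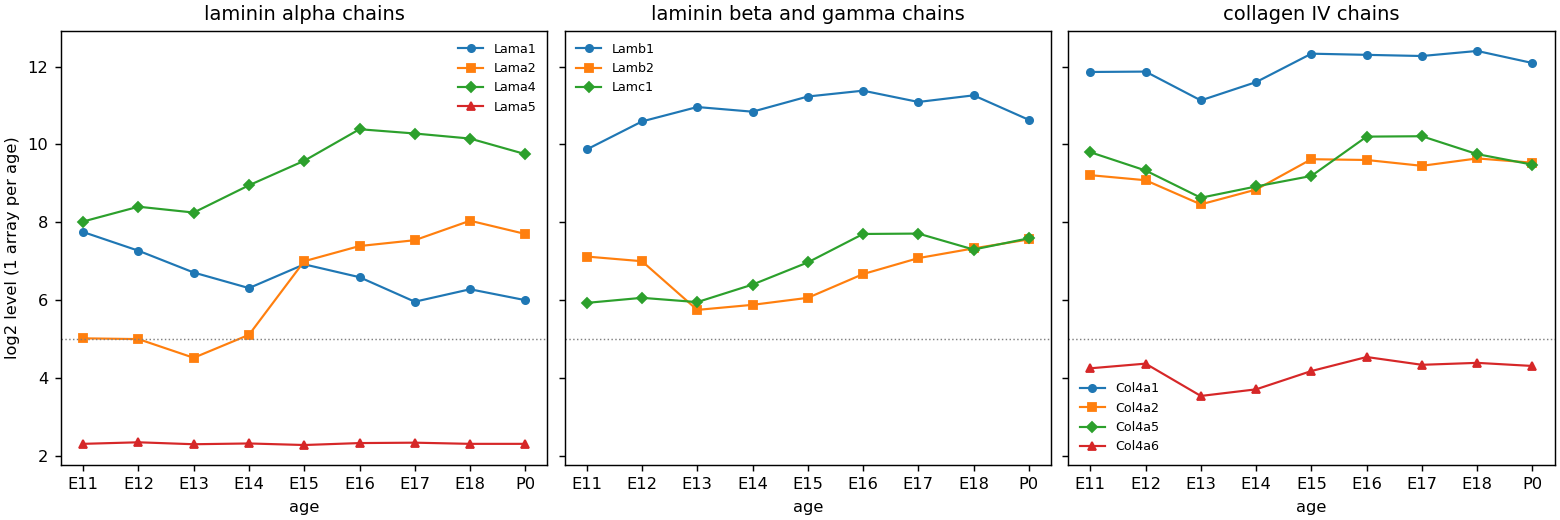
Log2 level at each age (1 array per age) of laminin alpha chains (left), beta and gamma chains (middle) and collagen IV chains (right); the dotted line is log2 5. Lama1 descends and Lama2 steps up at E15 while Lama5 stays between 2.28 and 2.35. Lamb1 is lowest at E11 and Lamb2 at E13. Col4a1 and Col4a2 run in parallel with a low point at E13.

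The collagen IV chains had no call. Col4a1 and Col4a2 form the common collagen IV of all vessels and of the pia. Col4a1 read 11.86 at E11, 11.87 at E12, 11.13 at E13, 11.60 at E14, 12.33 at E15, 12.30 at E16, 12.27 at E17, 12.40 at E18 and 12.09 at P0. Col4a2 read 9.21 at E11, 9.08 at E12, 8.46 at E13, 8.84 at E14, 9.62 at E15, 9.60 at E16, 9.45 at E17, 9.64 at E18 and 9.53 at P0. Both were lowest at E13 and highest at E18, within a range of 1.27 and 1.18 log2 units, and neither passed (slopes 0.091 ± 0.039 and 0.095 ± 0.039, adjusted p = 0.0803 and 0.0703). The 2 genes are neighbours on chromosome 8 on opposite strands, with RefSeq starts 21 bases apart in GRCm38.p6 (11312826 for Col4a1 and 11312805 for Col4a2). The difference between their readings, whose size also holds the brightness of the probe sets, stayed between 2.57 and 2.82 log2 units at all 9 ages, and the difference in slope was -0.0035 ± 0.011 per day (exact permutation test, adjusted p = 0.828). Col4a2 passed without the E11 array (adjusted p = 0.0457), when the sex of the animals was a term (0.0414) and when both E11 and E12 were left out (0.0446).

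Col4a5, a chain of more restricted membranes whose loss causes Alport kidney disease, had a low point at E13 too. Col4a5 read 9.80 at E11, 9.33 at E12, 8.63 at E13, 8.92 at E14, 9.19 at E15, 10.20 at E16, 10.21 at E17, 9.75 at E18 and 9.48 at P0. It had no call (slope 0.074 ± 0.059, adjusted p = 0.332). The neighbouring Col4a6, and Col4a3 and Col4a4, which share molecules with Col4a5 in the kidney, read at most 4.54, 2.72 and 4.47. Of 14 endothelial markers on the array, 5 did not reach the filter, Pecam1 and Cdh5 among them. The median of the 9 tested was 7.06 at E11, 5.85 at E13, 7.60 at E18 and 7.06 at P0. Of the 9, 2 rose, 0 fell and 7 did not pass. Cldn5 was lowest at E11 (8.13) and Erg at E14 (3.97), and the others tested were lowest at E13. Of 11 pericyte and mural markers 3 did not reach the filter, and of the 8 tested 5 rose and 1 fell (all genes, 25.2% and 21.9%). All 8 tested markers of ensheathing glia, which wrap the olfactory nerve in basement membrane, rose. Their median was 3.46 at E11 (under 5), 6.74 at E13, 8.25 at E15 and 8.76 at P0. Between E11 and E13 Lama2 went from 5.02 to 4.52 and Lama4 from 8.02 to 8.25, so that these courses differed from that median. Of 10 skeletal muscle markers 2, Acta1 and Myh8, reached the filter and rose, and 8 did not reach it. The part of these cells in the laminin values was not tested.

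Among the other chains, Col25a1 was the 1 that fell. Collagen XXV is a neuronal collagen of the cell membrane, known from amyloid plaques and from the growth of motor axons into muscle. Col25a1 read 10.48 at E11, 11.06 at E12, 9.06 at E13, 7.51 at E14, 6.27 at E15, 5.33 at E16, 6.51 at E17, 5.94 at E18 and 6.77 at P0. E11 and E12 lay above 10 and every age from E15 on under 7. The slope was -0.62 ± 0.13 (adjusted p = 0.00332), early ages lay 13.8-fold above late ones, and the course also passed as a dip with a low near day 17.2 (-2.99 log2 units, adjusted p = 0.0441). The linear fall did not pass on ranks (exact Spearman test, adjusted p = 0.0708) or with only the 7 ages after E12 (0.123). The other Col25a1 probe set read at most 2.09, under the filter, so that no other probe set checks this fall.

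Both other membrane collagens tested rose. Col23a1, a transmembrane collagen, had a slope of 0.38 ± 0.042 (adjusted p = 9.36e-05), the smallest p among the 32 chains, and all 3 of its probe sets rose. It read 5.49 at E11, 6.79 at E13, 8.53 at E18 and 8.06 at P0. Col13a1, a transmembrane collagen of the neuromuscular junction, read 3.75 at E11, 6.73 at E15 and 5.69 at P0 (slope 0.29 ± 0.075, adjusted p = 0.0103), which did not pass with E11 left out (adjusted p = 0.0634), with both E11 and E12 left out (0.234) or on ranks (exact Spearman test, 0.0803). With values under 5 set to 5 the Col13a1 slope was 0.17 (adjusted p = 0.0424). Col17a1, of the attachment of skin, read at most 2.51.

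Of the FACIT chains, which lie on fibrils, Col12a1, Col14a1, Col16a1 and Col19a1 rose and Col9a1 and Col9a3 did not pass. Col14a1 read 2.89 at E11, 2.90 at E12, 2.87 at E13, 3.67 at E14, 4.75 at E15, 4.91 at E16, 5.61 at E17, 5.56 at E18 and 5.40 at P0. Col14a1 was under 5 up to E16 and above it afterwards (slope 0.41 ± 0.056, adjusted p = 0.000288), so that 6 of its 9 readings are under the filter level. With these set to 5 the slope was 0.075 (adjusted p = 0.0381), and late ages were at least 1.44-fold above early ones. Col19a1 read 3.97 at E11, 4.37 at E12, 6.75 at E13, 6.54 at E14, 7.56 at E15, 7.32 at E16, 6.73 at E17, 7.39 at E18 and 7.41 at P0. Col19a1, a collagen of interneurons and of synapse formation, had its largest increase between E12 and E13 (slope 0.39 ± 0.094, adjusted p = 0.00651). With E11 and E12 left out Col19a1 did not pass (adjusted p = 0.255), and on ranks the adjusted p was 0.0708 (exact Spearman test). Col12a1 (slope 0.37 ± 0.066) and Col16a1 (0.17 ± 0.044) rose as well, and Col16a1 did not pass with E11 and E12 left out (adjusted p = 0.0998).

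Collagen IX, the FACIT of cartilage, which is also made by the eye and neural tube, had no linear call. Col9a1 read 7.22 at E11, 6.92 at E12, 7.35 at E13, 6.93 at E14, 7.02 at E15, 7.40 at E16, 6.82 at E17, 6.87 at E18 and 6.54 at P0. Col9a3 read 7.47 at E11, 8.56 at E12, 8.15 at E13, 8.47 at E14, 8.95 at E15, 9.16 at E16, 8.75 at E17, 8.09 at E18 and 8.16 at P0. Col9a1 stayed within 0.86 log2 units (adjusted p = 0.169), while Col9a3 was highest at E16 and passed as a peak of 1.05 log2 units near day 15.4 (adjusted p = 0.0430). The slopes of both chains differed by -0.11 ± 0.065 (Col9a1 minus Col9a3, exact permutation test, adjusted p = 0.209). Col9a2, the remaining chain of collagen IX, read at most 4.15.

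Peaks or dips were called for 4 of the 32 chains (Lamb1, Lamb2, Col9a3 and Col25a1), beside 6.22% of all genes; peaks were 4.96% and dips 1.26%. Sex was not a term in these fits, so that a bend with age and sex are in part not told apart. None of the 4 held in every fit with an array left out, and the count lay between 1 and 6. It was 2 without E14 and 1 without E15, E16, E18 or P0.

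The remaining chains were dim or without a call. Col18a1, a collagen of basement membranes from which endostatin is cut, read 8.79 at E11 and between 6.94 and 8.10 afterwards (slope -0.13 ± 0.062, adjusted p = 0.109), and it passed as a fall without the E13 array (adjusted p = 0.0320). Its relative Col15a1 read at most 4.91. Col26a1 rose (slope 0.27 ± 0.059, adjusted p = 0.00447), though not with E11 and E12 left out (adjusted p = 0.0726). Col8a1, of vessel walls, read above 5 only from E17 on and had a slope of 0.27 ± 0.078 (adjusted p = 0.0150), a call that ended with values under 5 set to 5 (slope 0.087, adjusted p = 0.176), on ranks (exact Spearman test, 0.0535) and with E11 and E12 left out (0.0918). Col14a1 and Col8a1 were just inside the filter with 3 arrays at 5 or more, and Col20a1, with 5.09 on 1 array, was just outside, as were Col22a1 and Col15a1 with highest values of 4.92 and 4.91.

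Chains known from skin and its basement membrane stayed under the filter. Lama3, Lamb3, Col7a1 and Col17a1 read at most 3.82, 2.30, 4.49 and 2.51, and Col10a1, the collagen of hypertrophic cartilage, at most 2.29. Of 14 markers of surface and nasal epithelium 11 stayed under the filter as well, the keratins Krt5 and Krt14 and the factor Trp63 among them. The other 3 were measured: the junction genes Perp (4.59 at E11, 7.92 at P0) and Dsp (5.16 and 7.67) rose, and Epcam (6.60 and 3.95) fell. Col8a2 read at most 3.50.

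Of 16 chains with more than 1 probe set over the filter, 0 had slopes of opposite sign between them. That count covers the sign only, leaves out probe sets under the filter and has no share of all genes beside it. Calls differed between the probe sets of Col11a1 and between those of Col5a1. Among members that are neighbours on a chromosome, Col9a1 (no call) lies beside Col19a1 (rose) and Col4a5 (no call) beside Col4a6 (not tested), while Col3a1 and Col5a2, and Col6a1 and Col6a2, rose together.

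Of 20 tested genes that fold, modify and cross-link collagen, 8 rose, 0 fell and 12 did not pass, beside 25.2% and 21.9% of all genes that rose and fell. Lox, the oxidase that starts the cross-links of collagen fibres, rose most, from 4.04 at E11 to 8.67 at E15 and 9.46 at P0 (slope 0.81 ± 0.11, adjusted p = 0.000287). Pcolce, which speeds the cutting of procollagen (0.41 ± 0.085), Plod1, a lysyl hydroxylase (0.33 ± 0.059), and P4ha2, a prolyl hydroxylase subunit (0.19 ± 0.041), rose too. The general collagen chaperone Serpinh1 read 11.11 at E11 and 10.95 at P0 and had no call (slope 0.011 ± 0.039, adjusted p = 0.830), nor had P4hb and Ppib, which serve many secreted proteins.

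Of 15 basement membrane partners tested 8 rose, 1 fell and 6 did not pass, again beside 25.2% rising and 21.9% falling among all genes. Efemp1, a fibulin (0.71 ± 0.13), Npnt, a ligand of an integrin at basement membranes (0.57 ± 0.081), and Fbln2 (0.52 ± 0.070) rose most. The nidogens Nid1 (0.27 ± 0.050) and Nid2 (0.34 ± 0.058), which tie laminin to collagen IV, rose too. Ntn4, a laminin-related netrin, fell (-0.14 ± 0.038), and the heparan sulphate proteoglycans Hspg2 (adjusted p = 0.172) and Agrn (0.618) did not pass. Of 15 fibril-associated genes tested 12 rose and 1, Vcan, fell (-0.075 ± 0.021), beside the same 25.2% and 21.9%. The steepest were Ogn (1.11 ± 0.11), Matn4 (0.93 ± 0.12), Dcn (0.89 ± 0.13) and Fmod (0.83 ± 0.099), proteins that bind fibrils or matrix filaments. Up to E13 Ogn, Matn4 and Fmod all read under 5.

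Of 10 tested receptor genes 4 rose, 0 fell and 6 did not pass, a share of calls close to the 47.2% of all genes. Itga7, a laminin receptor known from muscle, rose from 2.23 at E11 to 6.17 at P0 (0.64 ± 0.079), and Ddr2, a receptor for fibrillar collagen on mesenchymal cells, rose (0.36 ± 0.098, adjusted p = 0.0128). Ddr1, its epithelial relative, had a slope of -0.066 ± 0.035 (adjusted p = 0.149), and Itga6, a laminin receptor of progenitors, -0.072 ± 0.034 (0.103). Sgcb, a sarcoglycan of the dystrophin complex (0.29 ± 0.051), and Dag1, which encodes the laminin receptor dystroglycan, rose (0.080 ± 0.026, adjusted p = 0.0274). Adgrg1, a receptor on radial glia that binds collagen III, read 8.35 at E11 and 8.30 at P0 without a call (adjusted p = 0.389).

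Of 15 matrix proteases and inhibitors tested 8 rose, 0 fell and 7 did not pass; the share called was close to the 47.2% of all genes, of which 25.2% rose. The inhibitor Timp3 (0.53 ± 0.037) and the proteases Ctsk (0.52 ± 0.099), Adamts5 (0.48 ± 0.073) and Adamts1 (0.38 ± 0.080) rose, while Mmp2 (adjusted p = 0.0801) and Mmp14 (0.145), enzymes of collagen breakdown at the cell surface, did not pass. The median slopes of the 5 lists were 0.054 for assembly, 0.18 for basement membrane partners, 0.26 for fibril-associated genes, 0.052 for receptors and 0.12 for proteases and inhibitors, beside 0.0020 for all genes. The genes of these lists named without a call, and the nidogens, were chosen after their values were seen. Slopes of list genes are given without setting values under 5 to 5. Readings under 5 enter those of Ogn, Matn4, Fmod, Lox, Itga7, Plod1 and P4ha2, among others, and so their order.

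**Figure D5:**
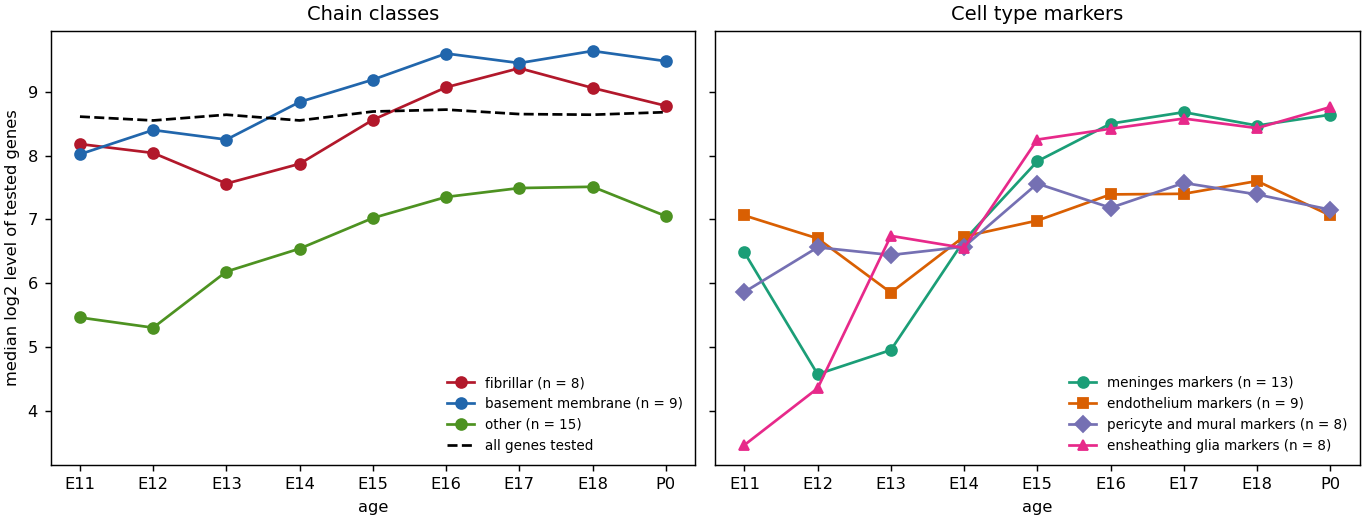
Median log2 level at each age of the tested chains of each class and of all genes tested (left), and of tested markers of 4 cell types (right), with the number of genes in the legend. The fibrillar median is lowest at E13 (7.56) and highest at E17 (9.37), and the meningeal median is lowest at E12 (4.57).

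Without the E11 and E12 arrays, 15 chains rose and 1, Col2a1, fell, beside 14.0% and 11.2% of all genes. Of the 8 fibrillar chains tested 4 rose, and of the 9 basement membrane chains 5 (Lama2, Lama4, Lamc1, Lamb2 and Col4a2). Of the 15 other chains 6 rose, among them all 3 chains of collagen VI.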

How the data were processed

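RNA of 9 olfactory bulbs (CD1, E11 to E18 and P0, 1 animal per age) was read on Affymetrix whole-genome mouse arrays. The deposited log2 levels were made with GCRMA, per the submitters' processing notes; its version is not given in the sources used here. Of 45101 probe sets, 64 were controls, 34958 had 1 gene symbol in the platform annotation, 932 several and 9211 none. The probe set of highest mean was taken per gene, and genes at log2 5 or more on at least 2 arrays were tested (10864). limma 3.58.1 (R 4.3.3) fitted a slope against age in days, P0 as day 19, with a variance trend, and a quadratic term for peaks and dips; p-values were adjusted over all genes (Benjamini-Hochberg, threshold 0.05). Slopes of 11 planned pairs of chains were compared with an exact permutation test over ages. That test does not measure how far slopes differ between probe sets of a gene. The number of arrays, 9, limits the precision; the median residual SD was 0.24.

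In simulated data, 200 of 10864 genes were changed, by 1, 2 or 4 log2 units. Of the genes changed by each size, 40.9%, 88.1% and 95.5% were recovered, in that order. In the measured data 47.2% of the genes tested were called, and the Benjamini-Hochberg cut-off depends on that share. The recovered shares therefore do not give the power of the tests reported here. The members and lists were chosen with earlier results of these data known, and the bulb neuron genes and the pyrimidine motif were added later. Levels at every age are given for members of the pairs, for up to 5 rising and 5 falling chains per class with the largest slopes and for every peak or dip; of other lists, up to 4 genes per direction with the largest slopes are named. Promoter sequences are RefSeq's (GRCm38.p6). Alternatives were other normalizations, filters, probe set rules, ages, ranks, embryo sex and leaving out each array.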

Additional observations from a re-analysis of the deposited data

How the results depend on the processing

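Over 21 alternatives to the fit of the 32 slopes, 648 of 676 slopes kept their direction and their side of the threshold, 15 lost the call, 7 gained one and 6 changed sign without a call. From E13 to P0 alone 1 chain fell; 5 basement membrane chains rose and 0 fell, and 6 other chains rose and 0 fell. Without probe sets marked _x_, _s_ or _a_, 0 fibrillar chains fell and 7 other chains rose, since fewer chains were then tested. By exact rank correlation 15 chains rose and 2 fell. Of the other chains 8 rose and 0 fell, since Col25a1 did not pass (exact Spearman test, adjusted p = 0.0708). With an array left out, 19 to 20 chains rose and 3 to 4 fell, 1 to 2 other chains fell (2 without E13), and 1 to 6 had a peak or dip. Shares of all genes are not given for the rank test, the probe set rule or the arrays left out. Counts under those settings show only how the calls of the chains moved. Slopes that changed sign were those of Col18a1 (0.027, E13 to P0), Col27a1 (-0.0052 with median centring, -0.0030 with quantile normalization), Col9a3 (-0.034 from E13 to P0; with an array left out, -0.025 without E11 to 0.10) and Lamb1 (-0.010, E13 to P0). Slope differences that changed sign were Col1a1 minus Col1a2 (-0.053 with values under 5 set to 5) and, over the arrays left out in turn, Col3a1 minus Col5a2 (-0.071 to 0.0038), Col4a1 minus Col4a2 (-0.011 to 0.011), Col4a1 minus Col4a5 (-0.019 to 0.036) and Lamb1 minus Lamb2 (-0.16 to 0.11). None of these had passed. Quantile normalization and median centring moved array medians by at most 0.088. The 5 planned pairs with a chain below the filter (Col4a6, Col15a1, Lama5 and Lamc3) had no test. No paired analysis was possible because each age had 1 array. A chain read under log2 5 has only a bound on its fold change.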
